A study of Mus musculus with 14 samples.

Results

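The 10 genes described here encode checkpoint ligands and secreted or surface immune suppressors: Cd274, Pdcd1lg2, Cd276, Cd80, Cd86, Lgals9, Pvr, Cd47, Nt5e and Tgfb1. They were taken by name from a table of 51789 genes, and all 10 were present. RNA had been extracted from pieces of whole tumour and read at the 3' end of polyadenylated RNA with the Lexogen QuantSeq kit. The 14 libraries fall into 4 groups by mouse strain and treatment: C57BI/6 mice given ACSS2i (n = 4), a small molecule against ACSS2, the enzyme that makes acetyl-CoA out of acetate, C57BI/6 mice given vehicle (n = 4), NGS mice given ACSS2i (n = 3) and NGS mice given vehicle (n = 3). The strains are written as the labels spell them, except that C57BI/6 appears below as C57BI6. It is not clear which strain NGS means, and nothing is taken for granted about its immune cells. The series title names triple negative breast cancer, but the sources used here do not give the tumour line, the age of the mice, the dose or how long treatment lasted. Its design line names Bmal1 status, which no label assigns to a library. The labels do not say that replicates of a group came from different animals, so p-values measure the spread between these libraries.

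Checkpoint ligands are surface proteins that bind inhibitory receptors on lymphocytes or macrophages and so hold back an immune response. The products of Cd274 (PD-L1) and Pdcd1lg2 (PD-L2) bind PD-1 on T cells, and transcription of Cd274 is known to follow interferon gamma through IRF1. Other members act outside the PD-1 axis: a signal that stops phagocytosis, an enzyme that makes extracellular adenosine, and a cytokine that dampens lymphocytes. Many cell types of a tumour can carry these genes, malignant cells, macrophages and dendritic cells among them. In bulk tissue, fewer cells that express a gene and less of its RNA per cell cannot be told apart.

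The promoters of 3 members are shown because the results below turn on them: Lgals9 and Tgfb1 rose with ACSS2i in NGS tumours, and Cd274 had the largest fold between the strains of the 9 members that could be fitted. Each window runs from 250 bases before to 50 bases after the RefSeq start, in build GRCm38.p6, written 5' to 3' on the strand of the gene. Capitals mark matches to a pattern of interferon regulatory factor elements, GAAA, any 2 bases and GAAA again. The windows lie at chr11:78984875-78985174 (minus strand) for Lgals9, at chr7:25686752-25687051 (plus strand) for Tgfb1 and at chr19:29367188-29367487 (plus strand) for Cd274.
Lgals9: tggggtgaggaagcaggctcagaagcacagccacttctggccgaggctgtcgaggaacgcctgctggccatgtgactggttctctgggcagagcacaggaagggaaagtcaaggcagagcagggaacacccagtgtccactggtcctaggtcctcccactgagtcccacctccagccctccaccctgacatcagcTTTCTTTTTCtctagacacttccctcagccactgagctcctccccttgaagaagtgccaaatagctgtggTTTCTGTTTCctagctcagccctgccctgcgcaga
Tgfb1: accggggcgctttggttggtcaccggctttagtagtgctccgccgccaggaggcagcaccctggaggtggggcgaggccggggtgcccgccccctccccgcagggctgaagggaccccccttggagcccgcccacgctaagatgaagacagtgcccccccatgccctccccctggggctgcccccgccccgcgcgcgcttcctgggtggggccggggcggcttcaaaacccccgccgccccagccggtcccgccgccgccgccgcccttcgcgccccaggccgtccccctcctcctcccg
Cd274: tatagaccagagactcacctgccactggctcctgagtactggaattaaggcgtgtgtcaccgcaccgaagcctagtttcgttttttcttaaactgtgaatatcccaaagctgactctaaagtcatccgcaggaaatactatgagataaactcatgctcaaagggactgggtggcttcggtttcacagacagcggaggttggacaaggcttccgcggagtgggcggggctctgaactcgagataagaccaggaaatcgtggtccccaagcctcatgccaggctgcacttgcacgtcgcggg
A window was on hand for 8 of the 10 members, and this pattern occurred, on either strand, in the Lgals9 window alone among them. Its 2 matches there both lie on the opposite strand and begin at positions -55 and 15 counted from the start, and they read TTTCTTTTTC and TTTCTGTTTC on the strand shown. Among all 32851 promoter windows of this length, 1131 (3.44%) held that motif. Neither TTCNNNGAA, the pattern of a STAT element, present in 8.3% of all windows, nor GGGANTTCC, a pattern for NF-kB, present in 1.68%, occurred in any window of these 8 members on either strand. None of the motif matches overlapped.

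Sequencing depth followed the strain, at 18.4 to 20.3 M counts in C57BI6 ACSS2i, 17.6 to 19.2 M in C57BI6 vehicle, 2.85 to 4.04 M in NGS ACSS2i and 4.21 to 4.70 M in NGS vehicle libraries. Thinning evens the number of counts only. Strain cannot be told apart from anything else that differed between libraries along with depth. Levels are given as CPM, the usual scaling of counts to a shared library total, with each total corrected by TMM, edgeR's adjustment for composition. Skeletal muscle genes stood out in 5 libraries, with summed levels above 3 times the median library: C57BI6 ACSS2i replicate 3, C57BI6 vehicle replicate 1, NGS ACSS2i replicate 1 and NGS vehicle replicates 2 and 3. Without these 5, the NGS vehicle group is replicate 1 alone, taken to vary like the other groups, so such fits are a weak check wherever that group is compared. That library also had the highest summed level of keratinocyte and skin genes of all libraries, 640.4 CPM. The NGS ACSS2i replicate 2 library lay apart from its group on the second principal component, at -114.8, against 17.1 and -37.7 for its replicates. Of the T cell and NK cell markers, Cd3e, Cd3g, Gzma, Klrb1c and Ncr1 had no count in any NGS library.

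Differences were tested with edgeR's quasi-likelihood test and p-values adjusted by Benjamini-Hochberg over all 17294 genes that passed a filter on low counts. Of the 10 members, 9 passed that filter. Pdcd1lg2 did not, and was tested alone by an exact permutation test. In NGS tumours, 2 of the 9 (Tgfb1 and Lgals9) rose with ACSS2i at an adjusted p under 0.05 and none fell, where 1.32% of all tested genes rose and 1.38% fell. At an unadjusted p under 0.05 were the same 2, where 22.1% of all genes were. In C57BI6 tumours none of the 9 passed in either direction, where 0.26% of all tested genes rose and 0.052% fell. At an unadjusted p under 0.05 the count there was 3 (Cd80, Cd86 and Lgals9, all higher with ACSS2i), where 7.96% of all genes were, and DESeq2 and limma voom each called 1 of the 9 there, Cd80. Between the vehicle groups, 5 of the 9 (Cd274, Tgfb1, Cd86, Pvr and Cd47) were higher in C57BI6 than in NGS tumours and none was lower, where 18.8% of all genes were higher and 14% lower. The test of the difference between the ACSS2i effects in C57BI6 and in NGS tumours called none of the 9, where 0.0173% of all tested genes were called, and 3 had an unadjusted p under 0.05 (Tgfb1, Cd276 and Cd80), where 13.8% of all genes did. DESeq2 called 1 of the 9 in that test, Tgfb1, and limma voom none.

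**Figure D1:**
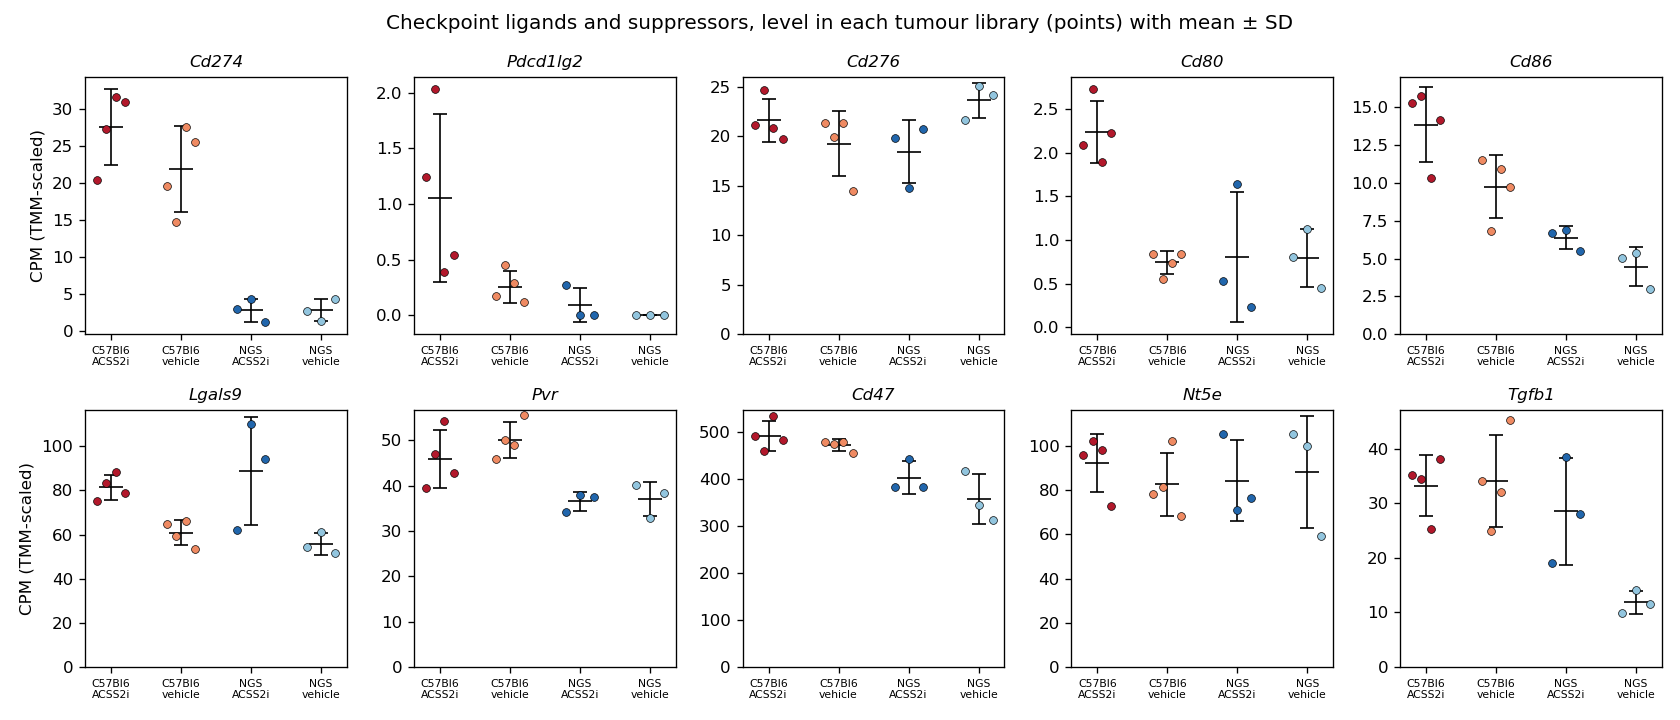
Level of each of the 10 genes in every library, in CPM of TMM-scaled totals on linear axes, with the group mean and SD as bars; points are libraries, and the groups run from C57BI6 ACSS2i to NGS vehicle. Cd274 lies between 14.8 and 31.6 CPM in all C57BI6 libraries and between 1.15 and 4.33 CPM in all NGS libraries, and Tgfb1 is lowest in NGS vehicle.

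Of the PD-1 ligands, Cd274 (ENSMUSG00000016496) differed between the strains, and no difference with ACSS2i was detected in either. It measured 20.4, 27.4, 31.6 and 31.0 CPM in C57BI6 ACSS2i libraries, against 19.7, 14.8, 27.6 and 25.5 CPM in C57BI6 vehicle libraries. The groups overlapped across most of their range, and the log2 fold change was 0.34 ± 0.25 (SE, adjusted p = 0.879), with a 95% interval of -0.20 to 0.88. In NGS tumours the gene had 2.94, 4.28 and 1.15 CPM with ACSS2i, against 2.63, 1.35 and 4.33 CPM with vehicle. Those values rest on 5 to 19 counts a library, the groups overlapped wholly, and the log2 fold change was -0.05 ± 0.51 (SE, adjusted p = 0.991, 95% interval -1.13 to 1.03).

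Every C57BI6 vehicle library stood above every NGS vehicle library for Cd274, with a mean of 21.9 ± 5.80 CPM (SD, n = 4), against 2.77 ± 1.497 CPM in NGS vehicle (SD, n = 3). That is a 7.90-fold difference (95% interval 4.56 to 13.7, edgeR adjusted p = 2.38e-05), higher in C57BI6. It passed the threshold with each of the 14 libraries left out in turn and after all libraries were thinned to 2846161 counts. Cd274 also varied more inside its groups than most genes of its level: its residual SD was 0.602 on the log2 scale, at the 90.6th percentile of the 500 genes nearest in mean level, whose median SD was 0.319.

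Pdcd1lg2 (ENSMUSG00000016498) begins 22823 base pairs past the end of Cd274 on the same strand of chromosome 19, and had the fewest counts of the 10. Its counts were 22, 41, 7 and 11 in C57BI6 ACSS2i libraries (1.24, 2.04, 0.390 and 0.545 CPM), against 3, 8, 5 and 2 in C57BI6 vehicle libraries (0.168, 0.448, 0.286 and 0.121 CPM). Replicates 1, 2 and 4 with ACSS2i exceeded all vehicle libraries, but replicate 3 lay below vehicle replicate 2, so the groups overlapped. The mean difference of 0.798 CPM had a two-sided exact permutation p of 0.0571, where 4 against 4 libraries can give no less than 0.0286. With 1 of the 8 libraries left out the exact p ran from 0.0286, without C57BI6 ACSS2i replicate 3, to 0.171, and the difference fell to 0.471 CPM without C57BI6 ACSS2i replicate 2, which had the most counts. In NGS tumours 1 count was seen in the ACSS2i group and none in the vehicle group, and 0 counts in vehicle allow up to 0.218 CPM over the group at a floor of 3 counts, or 0.268 CPM at the upper end of the exact 95% Poisson interval, by counting error alone. The C57BI6 vehicle libraries all lay above the NGS vehicle libraries, with a mean difference of 0.255 CPM (two-sided exact permutation p = 0.0571), which lies between those 2 limits, so counting error alone allows as much in NGS vehicle by the Poisson interval. An antisense gene, A930007I19Rik, lies near a transcript end of Pdcd1lg2 and had 377 counts in the whole table. The sources used here do not say whether counting used strand, so reads of that pair cannot be told apart if it did not.

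The 5 genes whose profile over the 14 libraries came nearest to that of Cd274, among 10210 protein-coding genes, were Psmb11, Kif24, Kctd3, Trim12c and Nmrk1. The root mean square difference between centred log2 profiles was 0.542 for Psmb11 and 0.582 for Nmrk1, the nearest and the fifth. All 5 were high in C57BI6 and low in NGS tumours; Psmb11, a proteasome subunit best known from the thymus, averaged 72.2 CPM in C57BI6 ACSS2i, 82.5 in C57BI6 vehicle, 11.4 in NGS ACSS2i and 11.7 in NGS vehicle. Trim12c, a member of the TRIM family, averaged 33.4 CPM in C57BI6 ACSS2i, 25.8 in C57BI6 vehicle, 4.65 in NGS ACSS2i and 5.12 in NGS vehicle. The libraries of a strain share their depth as well as their strain, so the likeness is a description.

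Cd80 and Cd86 encode the ligands of CD28, which costimulates T cells, and of CTLA-4, which inhibits them. Cd80 (ENSMUSG00000075122) showed the largest fold of the 9 fitted members under ACSS2i in C57BI6 tumours without passing the threshold. It had 2.09, 2.73, 1.89 and 2.23 CPM with ACSS2i (34 to 55 counts), against 0.838, 0.559, 0.743 and 0.845 CPM with vehicle (10 to 15 counts). All 4 ACSS2i libraries lay above all 4 vehicle libraries. The fold was 2.97 (95% interval 1.66 to 5.32), a log2 change of 1.57 ± 0.39 (SE), with an edgeR p of 0.00122 before adjustment and an adjusted p of 0.135. Some other fits of the same counts called it: DESeq2 (adjusted p = 0.00267), limma voom (adjusted p = 0.00526) and edgeR on the C57BI6 libraries alone (adjusted p = 0.0173). So did edgeR without NGS ACSS2i replicate 2, a library of the other strain (adjusted p = 0.0426). That was the only call in the 14 fits with 1 library left out, where the adjusted p reached 0.435. No member was called there with DESeq2 size factors in edgeR, either other filter or the replicate number as a block. After thinning none was called either, but only 8 members then passed the filter, against 9 in the main fit. A member below the filter could not be called, and Cd80 had the lowest mean level of the 9 (0.217 in log2 CPM).

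In NGS tumours Cd80 had 2, 5 and 1 counts with ACSS2i (0.535, 1.65 and 0.230 CPM), against 4, 5 and 2 counts with vehicle (0.809, 1.12 and 0.456 CPM). The groups overlapped, and the log2 fold change of -0.09 ± 0.64 (SE) had a 95% interval of -1.45 to 1.27. The difference between the 2 strains' ACSS2i effects was 1.66 on the log2 scale (95% interval 0.06 to 3.26, edgeR adjusted p = 0.348). Vehicle tumours of the strains had like means for Cd80, 0.746 ± 0.133 CPM in C57BI6 (SD, n = 4) and 0.796 ± 0.333 CPM in NGS (SD, n = 3), with a 95% interval of the fold from 0.435 to 2.02.

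Cd86 (ENSMUSG00000022901) did not pass the test with ACSS2i in either strain. Its values were 15.3, 15.7, 10.3 and 14.2 CPM in C57BI6 ACSS2i libraries, against 11.5, 6.83, 10.9 and 9.72 CPM in C57BI6 vehicle libraries. Replicates 1, 2 and 4 with ACSS2i exceeded all vehicle libraries, and replicate 3 lay among them. The log2 change of 0.51 ± 0.20 (SE) had an unadjusted p of 0.0209 and an adjusted p of 0.458. NGS tumours had 6.69, 6.92 and 5.52 CPM of Cd86 with ACSS2i, against 5.06, 5.38 and 2.96 CPM with vehicle. Those groups did not overlap, although their log2 change of 0.50 ± 0.29 (SE) did not pass (adjusted p = 0.335). In vehicle tumours Cd86 was 2.17-fold higher in C57BI6 than in NGS mice (95% interval 1.49 to 3.16, adjusted p = 0.00354), a call lost without the muscle-rich libraries (adjusted p = 0.110), where a single NGS vehicle library is left.

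Cd276 (ENSMUSG00000035914), whose product B7-H3 is a member of the B7 family with an inhibitory role on T cells, gave no call in any comparison. It had 21.1, 24.7, 20.9 and 19.7 CPM with ACSS2i in C57BI6 tumours, against 21.4, 19.9, 21.3 and 14.4 CPM with vehicle. The C57BI6 groups overlapped (log2 change 0.17 ± 0.14, SE, adjusted p = 0.889). NGS tumours had 19.8, 14.8 and 20.7 CPM with ACSS2i, against 21.7, 25.1 and 24.2 CPM with vehicle. All 3 NGS ACSS2i libraries lay below all 3 vehicle libraries, but the log2 change of -0.35 ± 0.18 (SE) did not pass (adjusted p = 0.269), nor did the difference between the effects, C57BI6 minus NGS (0.52 on the log2 scale, adjusted p = 0.340).

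Groups that did not overlap were counted as well. In C57BI6 tumours 2 of the 9 fitted members, Cd80 and Lgals9, were higher in every ACSS2i library than in every vehicle library and none was lower, where 5.05% of all tested genes were higher and 4.28% lower in that way. In NGS tumours 3 (Cd86, Lgals9 and Tgfb1) were higher and 1 (Cd276) lower, where 8.48% of all tested genes were higher and 10.3% lower. Between the vehicle groups, 5 of the 9 were higher in every C57BI6 library than in every NGS library and 1, Cd276, was lower, where 23.5% of all tested genes were higher and 17.1% lower.

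Lgals9 (ENSMUSG00000001123), on chromosome 11 at the first promoter shown, encodes galectin-9, a ligand of the receptor TIM-3. With ACSS2i it measured 62.0, 110.0 and 94.1 CPM in NGS tumours, against 54.2, 61.0 and 51.7 CPM with vehicle. Every NGS ACSS2i library lay above every vehicle library, replicate 1 by little. The gene rose by 0.67 ± 0.17 on the log2 scale (SE, edgeR adjusted p = 0.0476). That call is close to the threshold: it was lost with 13 of the 14 libraries left out in turn (adjusted p up to 0.137), with limma voom (adjusted p = 0.118), with NGS libraries alone (adjusted p = 0.254) and with the replicate number as a block (adjusted p = 0.0642).

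In C57BI6 tumours Lgals9 measured 75.0, 83.5, 88.2 and 78.7 CPM with ACSS2i, against 64.6, 59.1, 65.9 and 53.4 CPM with vehicle. All 4 ACSS2i libraries lay above all 4 vehicle libraries. The log2 change of 0.42 ± 0.14 (SE) had an adjusted p of 0.326 in edgeR. The adjusted p was 0.0317 when the C57BI6 libraries were fitted alone. DESeq2 and limma voom did not call it there, nor did edgeR with any 1 of the 14 libraries left out (adjusted p 0.0870 to 0.674). The ACSS2i effects in the 2 strains differed by -0.25 on the log2 scale, C57BI6 minus NGS (adjusted p = 0.639). Vehicle tumours held 60.8 ± 5.70 CPM in C57BI6 (SD, n = 4) and 55.7 ± 4.80 CPM in NGS mice (SD, n = 3), a fold of 1.09 (95% interval 0.868 to 1.37).

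**Figure D2:**
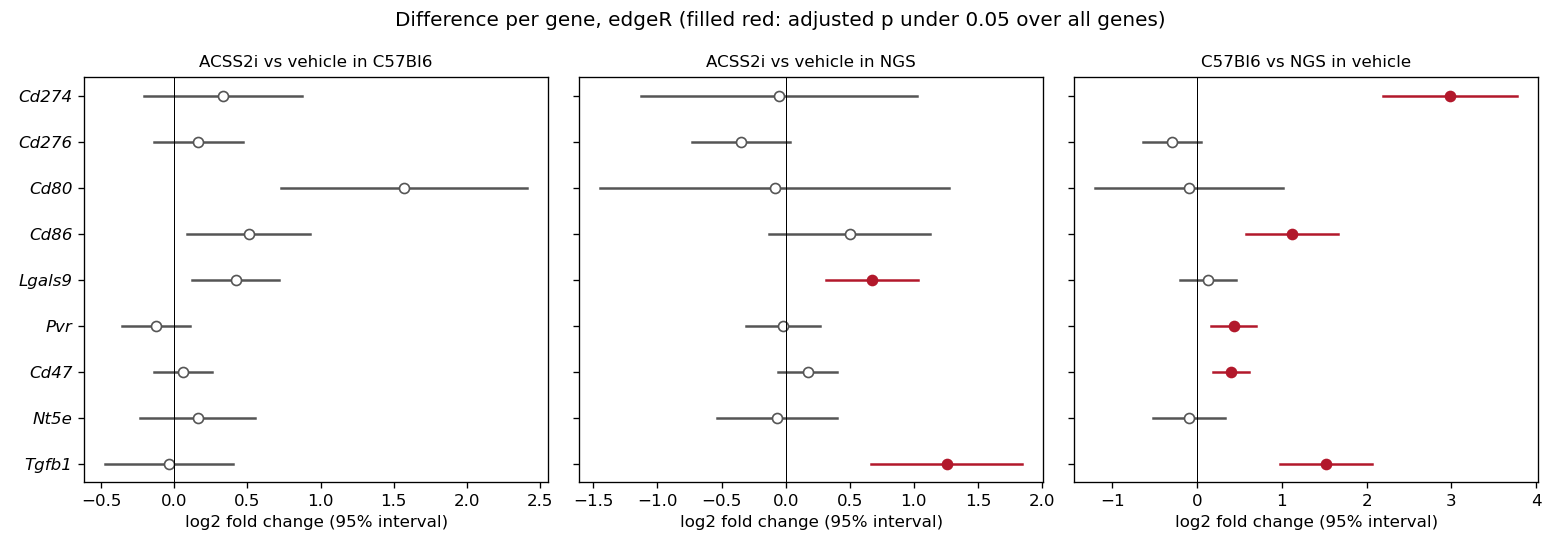
The edgeR log2 fold change of each of the 9 fitted members (points) with its 95% interval (lines), for ACSS2i against vehicle in C57BI6, ACSS2i against vehicle in NGS, and C57BI6 against NGS in vehicle; each panel has its own horizontal scale. Filled red points have an adjusted p under 0.05: none in the first panel, Lgals9 and Tgfb1 in the second, and Cd274, Cd86, Pvr, Cd47 and Tgfb1 in the third.

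Pvr (ENSMUSG00000040511) encodes the poliovirus receptor CD155, a ligand of the inhibitory receptor TIGIT and of the activating receptor CD226. It had 39.5, 47.0, 54.3 and 42.9 CPM in C57BI6 ACSS2i libraries, against 45.9, 50.1, 49.0 and 55.5 CPM in C57BI6 vehicle libraries. In NGS tumours it had 34.2, 37.9 and 37.5 CPM with ACSS2i, against 40.1, 33.0 and 38.3 CPM with vehicle. The treatment groups overlapped in both strains, with 95% intervals of the log2 change from -0.36 to 0.10 in C57BI6 and from -0.31 to 0.27 in NGS tumours. Vehicle tumours of C57BI6 mice had 1.35-fold more than those of NGS mice (adjusted p = 0.0143), a log2 difference of 0.43. The call was lost without NGS vehicle replicate 2 (log2 difference 0.36, adjusted p = 0.0764) and without the muscle-rich libraries (0.39, adjusted p = 0.157), with a single NGS vehicle library in that last fit.

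Cd47 (ENSMUSG00000055447) encodes the signal by which a cell stops macrophages from engulfing it, read by the receptor SIRPA. It had the smallest spread within groups of the 9 fitted members. C57BI6 tumours had 493, 460, 536 and 485 CPM with ACSS2i, against 480, 476, 481 and 456 CPM with vehicle. NGS tumours had 385, 444 and 383 CPM with ACSS2i, against 417, 346 and 313 CPM with vehicle. The groups overlapped in both strains, and the 95% intervals allow log2 changes from -0.14 to 0.26 in C57BI6 and from -0.06 to 0.40 in NGS tumours. Its residual SD of 0.122 on the log2 scale was at the 33.7th percentile of genes of like level. Vehicle tumours of C57BI6 mice had 1.32-fold more than those of NGS mice (adjusted p = 0.00749), a call lost without the muscle-rich libraries, with a single NGS vehicle library left (adjusted p = 0.328).

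Nt5e (ENSMUSG00000032420) encodes CD73, the surface enzyme that turns AMP into adenosine. Its C57BI6 values were 96.1, 102.3, 98.2 and 72.7 CPM with ACSS2i, against 78.4, 81.5, 102.4 and 68.5 CPM with vehicle. Its NGS values were 105.4, 71.2 and 76.4 CPM with ACSS2i, against 105.4, 100.1 and 59.3 CPM with vehicle. All 4 groups overlapped, and the log2 changes with ACSS2i were 0.16 ± 0.18 in C57BI6 and -0.07 ± 0.22 in NGS tumours (SE). Nt5e spread widely within groups, at the 87.4th percentile of genes of its level. Of the other adenosine pathway genes, none of 13 tested passed in either treatment comparison by edgeR. An unadjusted p under 0.05 was found for 2 in C57BI6 and 4 in NGS tumours, beside 7.96% and 22.1% of all genes. Entpd1, whose product CD39 makes the AMP that CD73 uses, had 25.5 ± 2.73 CPM with ACSS2i and 18.0 ± 1.89 CPM with vehicle in C57BI6 tumours (SD, n = 4 each), with an adjusted p of 0.278; Bst1, a cyclase of the CD38 family, followed with an adjusted p of 0.539. In NGS tumours Dpp4, whose product binds adenosine deaminase, had 0.584 ± 0.382 CPM with ACSS2i and 4.88 ± 1.35 CPM with vehicle (SD, n = 3 each, adjusted p = 0.0659), and Enpp1, a nucleotide pyrophosphatase, had an adjusted p of 0.149.

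Tgfb1 (ENSMUSG00000002603) encodes the cytokine TGF-beta 1, which restrains T cells and NK cells. In NGS tumours it had 19.0, 38.6 and 28.1 CPM with ACSS2i, against 9.92, 14.1 and 11.6 CPM with vehicle. The lowest ACSS2i library stood above the highest vehicle library. Tgfb1 rose by 1.26 ± 0.28 on the log2 scale (SE, edgeR adjusted p = 0.0291), with means of 28.5 ± 9.79 CPM with ACSS2i and 11.9 ± 2.12 CPM with vehicle (SD, n = 3 each). The call was lost without NGS ACSS2i replicate 2 (log2 change 1.01, adjusted p = 0.0995), without NGS ACSS2i replicate 3 (adjusted p = 0.0676), without NGS vehicle replicate 1 (adjusted p = 0.0886) or 3 (adjusted p = 0.0693), with limma voom (adjusted p = 0.177) and with NGS libraries alone (adjusted p = 0.166). Without the muscle-rich libraries the log2 change was 1.76 (adjusted p = 0.0484), against NGS vehicle replicate 1 alone, the lowest of that group, so that value is no check of the call.

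In C57BI6 tumours Tgfb1 had 35.2, 34.4, 25.3 and 38.1 CPM with ACSS2i, against 34.1, 24.9, 32.0 and 45.3 CPM with vehicle. These groups overlapped wholly (log2 change -0.03 ± 0.21, SE). The ACSS2i effect in C57BI6 minus that in NGS tumours was -1.29 ± 0.34 on the log2 scale (SE), which did not pass after edgeR's adjustment (adjusted p = 0.205) and did with DESeq2 (adjusted p = 0.0306). Vehicle tumours of C57BI6 mice held 2.87-fold more Tgfb1 than those of NGS mice (95% interval 1.97 to 4.18, adjusted p = 0.000354), a call kept with each library left out. By mean level, C57BI6 ACSS2i (33.3 ± 5.52 CPM, SD) and C57BI6 vehicle (34.1 ± 8.44 CPM, SD) stood highest and overlapped with NGS ACSS2i, and NGS vehicle lay below all the other libraries.

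**Figure D3:**
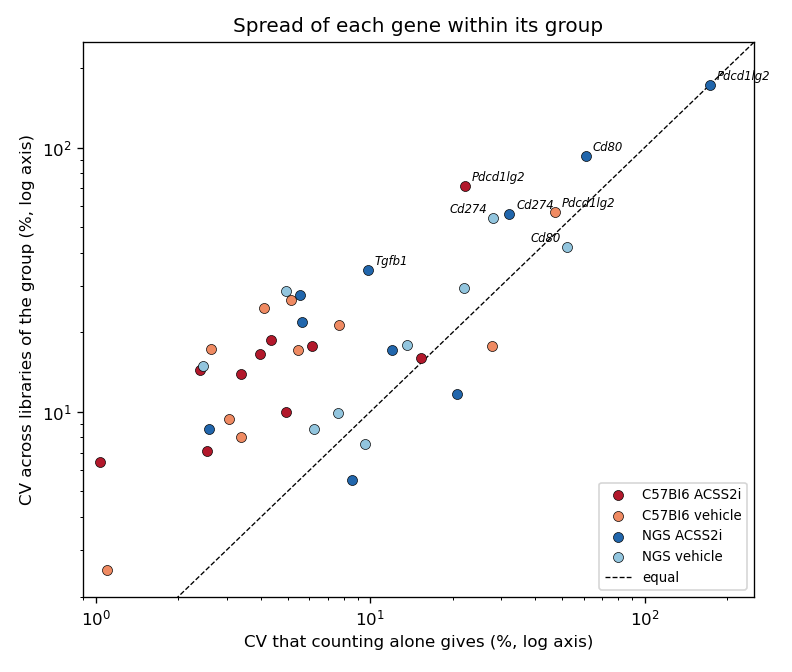
Coefficient of variation (CV) of each gene across the libraries of a group against the CV that counting alone gives, both in percent on log axes; each point is 1 gene in 1 group, coloured by group, and the dashed line marks equal values. Pdcd1lg2 in NGS ACSS2i, with 1 count, lies on the line, while Tgfb1 in NGS ACSS2i has a CV of 34.3% where counting gives 9.84%.

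Few genes that store, release or answer TGF-beta passed the test. None of 13 tested ligands and storage or activation genes passed in either strain by edgeR. In each strain 5 had an unadjusted p under 0.05, beside 7.96% of all genes in C57BI6 and 22.1% in NGS tumours. The median log2 change of the 13 was -0.15 in C57BI6 and -0.18 in NGS tumours, beside -0.01 over all genes in both. The smallest p-values there belonged to Lrrc32, which encodes the latent TGF-beta carrier GARP (adjusted p = 0.246), and Itgb6, an integrin chain (adjusted p = 0.357), in C57BI6 tumours, and to Ltbp4, a latent TGF-beta binding protein (adjusted p = 0.0646), and Tgfb3 (adjusted p = 0.134) in NGS tumours. Of 12 TGF-beta response genes, none passed in C57BI6 tumours (0 at an unadjusted p under 0.05; Postn, at an adjusted p of 0.819, and Ltbp2, at 0.829, came nearest), and 1 fell in NGS tumours: Postn, a matrix protein gene, had 734 ± 109.5 CPM with ACSS2i and 1024 ± 32.1 CPM with vehicle (SD, n = 3 each, log2 change -0.48 ± 0.11, SE, adjusted p = 0.0329). In that comparison 1.38% of all tested genes fell, and Postn was not called without NGS ACSS2i replicate 2. Dcn, a fibroblast marker, fell in the same comparison by 1.21 on the log2 scale (adjusted p = 0.0148), the only one of 6 fibroblast markers to pass; its part in the values of the matrix genes was not tested.

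The receptors that read these ligands, 12 of 13 tested, had no call in either treatment comparison by edgeR, with 6 in C57BI6 and 3 in NGS tumours at an unadjusted p under 0.05. Over all genes the shares at that value were 7.96% in C57BI6 and 22.1% in NGS tumours. Cd96, a receptor for CD155, averaged 2.03 ± 0.496 CPM with ACSS2i and 0.444 ± 0.115 CPM with vehicle in C57BI6 tumours (SD, n = 4 each, adjusted p = 0.0649). Ctla4 averaged 3.17 ± 1.92 CPM with ACSS2i and 0.476 ± 0.203 CPM with vehicle there (SD, n = 4 each, adjusted p = 0.0701). Neither Cd96 nor Ctla4 had a count in any NGS library. In NGS tumours Pdcd1, which encodes PD-1, had an adjusted p of 0.101 and Adora2a, an adenosine receptor, one of 0.110.

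Among other ligands, none of 8 tested B7 family and costimulatory genes passed in either treatment comparison by edgeR (1 in C57BI6 and 2 in NGS tumours at an unadjusted p under 0.05). All genes had shares of 7.96% in C57BI6 and 22.1% in NGS tumours at that value. Vsir, which encodes VISTA, averaged 62.2 ± 6.72 CPM with ACSS2i and 50.1 ± 4.26 CPM with vehicle in C57BI6 tumours (SD, n = 4 each, adjusted p = 0.476), and 60.5 ± 13.1 CPM with ACSS2i and 44.8 ± 2.33 CPM with vehicle in NGS tumours (SD, n = 3 each, adjusted p = 0.117). Next were Cd40 in C57BI6 (adjusted p = 0.885) and Fgl1, a ligand of LAG-3, in NGS tumours (adjusted p = 0.197). Of 13 nectin, galectin and innate checkpoint genes, none passed in C57BI6 tumours (1 at an unadjusted p under 0.05; the nearest were Thbs1, a ligand of CD47, at an adjusted p of 0.554 and Nectin4 at 0.660), and Nectin2 rose in NGS tumours. Nectin2, whose product binds receptors of the TIGIT family, averaged 29.1 ± 6.88 CPM with ACSS2i and 17.3 ± 1.89 CPM with vehicle (SD, n = 3 each, log2 change 0.75 ± 0.18, SE, adjusted p = 0.0440), and was not called without NGS ACSS2i replicate 2. In the full fit 1.32% of all tested genes rose in NGS tumours.

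Of 12 soluble and metabolic suppressors, 1 fell in C57BI6 and 1 rose in NGS tumours, where 0.052% of all tested genes fell in C57BI6 and 1.32% rose in NGS. Gdf15, a stress-induced cytokine of the TGF-beta superfamily, averaged 2.44 ± 0.775 CPM with ACSS2i and 7.99 ± 2.39 CPM with vehicle in C57BI6 tumours (SD, n = 4 each, log2 change -1.71 ± 0.31, SE, adjusted p = 0.0297). Il1rn, the interleukin 1 receptor antagonist, averaged 33.9 ± 13.2 CPM with ACSS2i and 10.2 ± 0.454 CPM with vehicle in NGS tumours (SD, n = 3 each, log2 change 1.72 ± 0.41, SE, adjusted p = 0.0404). Without NGS ACSS2i replicate 2 no gene of this list was called in NGS tumours.

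Of 15 tested interferon pathway genes, some of which act upstream of Cd274, 6 rose with ACSS2i in NGS tumours and none fell. Over all tested genes 1.32% rose and 1.38% fell there. Cd274 itself gave no call, but its NGS values rest on 5 to 19 counts a library. The list had a median log2 change of 0.62 beside -0.01 over all genes. Among the 9 that did not pass, Ciita, the activator of MHC class II genes, had a log2 change of -1.72 (adjusted p = 0.166) and Socs1, an inhibitor of cytokine signalling, one of -0.94 (adjusted p = 0.258). The smallest p-values belonged to B2m, Cxcl10, Stat2 and Gbp2. B2m, the light chain of MHC class I, averaged 3365 ± 417 CPM with ACSS2i and 1499 ± 50.3 CPM with vehicle (SD, n = 3 each, log2 change 1.17 ± 0.13, SE, adjusted p = 0.00127). Cxcl10, a chemokine induced by interferon, averaged 27.4 ± 3.29 CPM with ACSS2i and 8.59 ± 3.36 CPM with vehicle (SD, n = 3 each, adjusted p = 0.00575). Stat2, part of the type I interferon factor ISGF3, averaged 42.0 ± 9.12 CPM with ACSS2i and 21.7 ± 2.94 CPM with vehicle (adjusted p = 0.0150), and Gbp2, a guanylate-binding protein, 50.6 ± 10.6 CPM with ACSS2i and 22.2 ± 3.95 CPM with vehicle (adjusted p = 0.0243). The count of 6 became 2 of 16 without NGS ACSS2i replicate 2 and 5 of 16 without the muscle-rich libraries, where 1 NGS vehicle library is left.

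In C57BI6 tumours none of the 15 interferon genes passed by edgeR, and their list median was 0.50. At an unadjusted p under 0.05 were 8, beside 7.96% of all genes. Stat2 averaged 71.0 ± 7.12 CPM with ACSS2i and 44.6 ± 5.70 CPM with vehicle (SD, n = 4 each, adjusted p = 0.0510). Without the muscle-rich libraries 3 of 16 rose, as did 3 of 16 without NGS ACSS2i replicate 2. Of 14 regulators of Cd274 protein or mRNA, none passed in C57BI6 tumours (0 at an unadjusted p under 0.05; the nearest were Cmtm6, which stabilises PD-L1 at the cell surface, at an adjusted p of 0.758 and Csnk2a1 at 0.802), and in NGS tumours Rela, an NF-kB subunit, rose to 76.2 ± 5.79 CPM with ACSS2i, against 52.1 ± 6.85 CPM with vehicle (SD, n = 3 each, adjusted p = 0.0224). In vehicle tumours 8 of the 15 interferon genes were higher and 1 lower in C57BI6 than in NGS mice, as were 5 and 2 of the 14 regulators, beside the shares of 18.8% and 14% over all genes. B2m averaged 7796 ± 1367 CPM in C57BI6 vehicle (SD, n = 4) and 1499 ± 50.3 CPM in NGS vehicle (SD, n = 3, adjusted p = 3.55e-09).

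**Figure D4:**
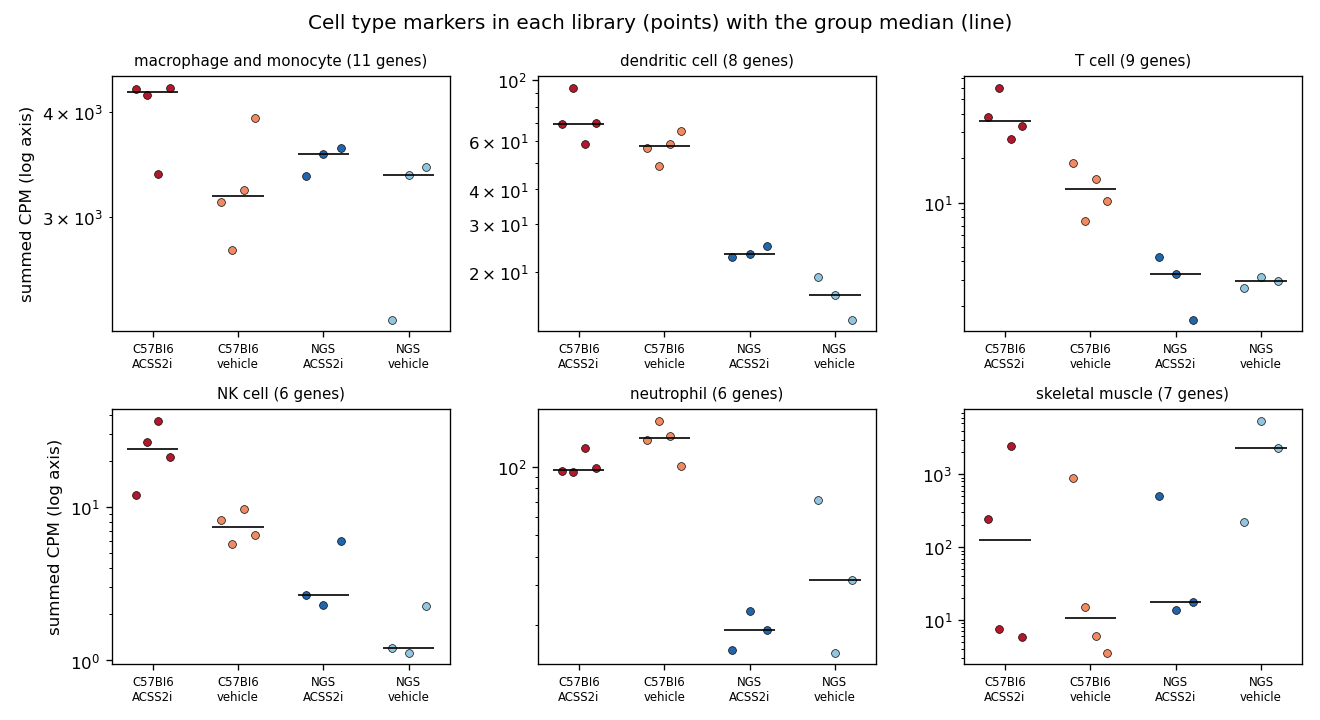
Summed CPM of the marker genes of 6 cell types in every library (points) with the group median (line), on log axes that differ between panels. T cell and NK cell sums are higher in every C57BI6 ACSS2i library than in every C57BI6 vehicle library, and skeletal muscle sums span from 3.56 to 5471 CPM.

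Summed levels of some cell type markers differed between the same groups as several members, although few single marker genes passed the test, and their part in the results was not tested. In C57BI6 tumours the summed level of 3 pan-leukocyte genes was 483 to 616 CPM with ACSS2i, against 345 to 413 CPM with vehicle. The sum of 9 T cell genes was 26.8 to 60.1 CPM with ACSS2i, against 7.50 to 18.4 CPM with vehicle, and that of 6 NK cell genes was 12.0 to 36.6 CPM with ACSS2i, against 5.71 to 9.66 CPM with vehicle. These groups did not overlap, as those of Cd80 and Lgals9 did not. No gene of those 3 lists passed edgeR's adjustment there. At an unadjusted p under 0.05 were 9 of 9 T cell, 3 of 6 NK cell and 3 of 3 pan-leukocyte genes, beside 7.96% of all genes. The 8 dendritic cell genes summed to 58.5 to 93.8 CPM with ACSS2i, against 48.6 to 65.0 CPM with vehicle, with none of 6 tested genes past the threshold and 2 at an unadjusted p under 0.05. The 11 macrophage and monocyte genes summed to 3379 to 4283 CPM with ACSS2i, against 2737 to 3943 CPM with vehicle, and 1 of them, Ly6c2, passed (adjusted p = 0.00156).

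In NGS tumours, where Tgfb1 and Lgals9 rose, the pan-leukocyte sum was 468 to 626 CPM with ACSS2i, against 340 to 426 CPM with vehicle, with no gene of 3 past the threshold and 2 of 3 at an unadjusted p under 0.05. Over all genes 22.1% were at such an unadjusted p. The macrophage and monocyte sum was 3354 to 3628 CPM with ACSS2i, against 2258 to 3441 CPM with vehicle, and again Ly6c2 alone of 11 passed (adjusted p = 0.00552). The dendritic cell sum was 22.7 to 24.9 CPM with ACSS2i, against 13.5 to 19.2 CPM with vehicle, with none of 6 tested genes past the threshold and 3 at an unadjusted p under 0.05. Of these 3, Itgax and Ccr7 were higher and Xcr1 was lower with ACSS2i (log2 change -1.26). Flt3 (-0.40) and Zbtb46 (-0.24) were lower as well, so that 3 of the 6 had a log2 change above 0. Itgax averaged 12.4 CPM with ACSS2i and 5.94 CPM with vehicle. The 6 NK cell genes summed to 2.31 to 5.98 CPM with ACSS2i, against 1.12 to 2.28 CPM with vehicle, without overlap. None passed, 1 was at an unadjusted p under 0.05, and 4 had no count in any NGS ACSS2i library. Other sums were lower with ACSS2i. The 6 fibroblast genes summed to 5914 to 6700 CPM with ACSS2i, against 7553 to 8274 CPM with vehicle, without overlap. Among these 6, 1 passed, Dcn, which fell, and 2 had a log2 change above 0. The 4 mast cell genes summed to 9.21 to 43.3 CPM with ACSS2i, against 62.6 to 130.3 CPM with vehicle, without overlap, with none past the threshold and 3 at an unadjusted p under 0.05. The 6 neutrophil genes summed to 15.5 to 23.1 CPM with ACSS2i, against 15.0 to 70.8 CPM with vehicle, and 1 of 5 tested, Csf3r, fell (log2 change -3.14, adjusted p = 0.0238). Skeletal muscle summed to 13.8 to 512 CPM with ACSS2i, against 225 to 5471 CPM with vehicle; its part in the Tgfb1 and Lgals9 calls was not tested.

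Between vehicle tumours, where Cd274 and Cd86 were higher in C57BI6, the dendritic cell sum was 48.6 to 65.0 CPM in C57BI6 and 13.5 to 19.2 CPM in NGS, and the T cell sum 7.50 to 18.4 CPM in C57BI6 and 2.63 to 3.14 CPM in NGS. Xcr1, a receptor of cross-presenting dendritic cells, carried most of the dendritic gap, with 36.9 ± 7.77 CPM in C57BI6 (SD, n = 4) and 1.31 ± 0.613 CPM in NGS vehicle (SD, n = 3), while Flt3 (log2 difference -1.51, adjusted p = 0.0999) and Zbtb46 (-0.59, adjusted p = 0.264) had lower values in C57BI6 without passing. Of the T cell genes 6 of 9, of the NK cell genes 4 of 6 and of the tested dendritic cell genes 1 of 6 were higher in C57BI6, and none of them lower, beside 18.8% of all genes higher. The neutrophil genes had 4 of 5 higher and none lower. Lower in C57BI6 were 4 of 5 keratinocyte and skin genes and 4 of 6 epithelial genes, with none of the first list and 1 of the second higher, beside 14% of all genes lower. NGS vehicle replicate 1 stood apart in both lists. Its keratinocyte and skin sum was 640.4 CPM, against 17.3 and 16.6 CPM in NGS vehicle replicates 2 and 3. The C57BI6 vehicle libraries had 14.1 to 17.6 CPM. Its epithelial sum was 711.5 CPM, against 313.2 and 279.9 CPM in NGS vehicle replicates 2 and 3. The macrophage and monocyte sums overlapped, at 2737 to 3943 CPM in C57BI6 and 2258 to 3441 CPM in NGS, with 2 of 11 genes higher and 2 lower in C57BI6. After thinning to equal totals, the same 5 members were called higher in C57BI6 vehicle, of 8 that then passed the filter.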

How the data were processed

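RNA of 14 mouse tumour pieces was measured. Values are the authors' counts of reads per gene, whole numbers as deposited; per the submitters' processing notes, mm10, RSEM 1.2.3 and DESeq2 were used, with no role stated. Rounding of RSEM estimates by the authors is possible, and the sources describe no molecular identifiers. Symbols came from GENCODE M21 (51596 of 51789 genes matched), promoters from RefSeq.

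Groups follow the labelled strain and treatment. Genes were filtered with filterByExpr (17294 kept), scaled by TMM and tested, two-sided, with edgeR 4.0.16 in R 4.3.3 in 1 model of the 4 groups, with Benjamini-Hochberg adjustment and a threshold of 0.05; the procedure was tested on simulated data. The common coefficient of biological variation was 0.236, and the chi-square per degree of freedom between libraries of a group was 6.62 to 25.4, above the 1 of duplicates. Counting limits use 95% intervals and a floor of 3 counts, and cover counting error only.

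Alternatives were DESeq2 1.42.0 (size factors, test), limma 3.58.1 (voom with quality weights), 2 other filters, fewer libraries, a replicate block and thinning. Members and lists were chosen with earlier results of these data known. Named are all members and, in each of 9 lists, up to 4 genes past the threshold per treatment comparison or else the 2 with the smallest p, except 1 gene that is not reported here; marker genes appear where they moved with a member. Of 213 listed symbols 1 was not matched. The 5 genes most like Cd274 were taken among protein-coding genes whose log2 CPM averaged at least 2.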

Additional observations from a re-analysis of the deposited data

Results flagged for a closer look

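Cd47 in C57BI6 vehicle replicate 4 stood apart from its group: 455.5 CPM, against 476.4 to 480.5 CPM in the other C57BI6 vehicle libraries. Its gap to the nearest library, over the range of the group, exceeded Dixon's 95% critical value of 0.829 for 4 libraries. Chance gives such a gap in about 1 in 20 groups, and 20 groups of 4 libraries were checked.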

How the results depend on the processing

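Most values of single members kept their direction and their side of the threshold. The number of genes past the threshold with ACSS2i in C57BI6 tumours, 54, became 329 with DESeq2, 429 with limma voom, 112 with no filter, 266 with those libraries alone and 25 after thinning, and ran from 15 to 122 with 1 library left out. In NGS tumours 466 became 1441 with DESeq2, 27 with voom and 9 with those libraries alone (118 to 1743 with 1 left out). The difference of the effects, with 3 genes, gave 248 with DESeq2, 0 with voom, 7 with no filter and 25 without the muscle-rich libraries (1 to 62). Strain in vehicle, with 5666 genes, gave 3715 after thinning and 2922 without the muscle-rich libraries (4608 to 6715). The causes were not tested.

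Replicate numbers did not pair the libraries: deviations of same-numbered libraries correlated from -0.137 to 0.155 in C57BI6 and from -0.002 to 0.095 in NGS tumours. With the replicate block the counts were 9 in C57BI6 and 254 in NGS tumours, Cd86 reversed in the difference of effects (-0.0196) and Nt5e between strains (0.0196), and of the members' calls Lgals9 in NGS was lost.

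No reversed value passed the threshold. With voom, Tgfb1 in C57BI6 was 0.054 and Pvr in NGS 0.0113. Without the muscle-rich libraries Tgfb1 in C57BI6 was 0.0822, Cd80 in NGS 0.0902 and Cd47 in the difference of effects 0.0247. After thinning Cd274 in NGS was 0.14, Pvr 0.0175 and Nt5e 0.0349, Cd86 in the difference of effects -0.038 (-0.0015 with DESeq2 size factors) and Nt5e between strains 0.009. With 1 library left out, log2 changes crossed 0 for Tgfb1 in C57BI6 (-0.15 to 0.13), for Cd274 (-0.45 to 0.43), Cd80 (-1.05 to 0.40), Pvr (-0.0896 to 0.0336) and Nt5e (-0.26 to 0.0803) in NGS, for Cd274 (-0.0756 to 0.80) and Cd86 (-0.14 to 0.22) in the difference of effects, and for Cd80 (-0.34 to 0.22) and Nt5e (-0.30 to 0.0623) between strains. NGS depth limits Cd274, Pdcd1lg2 and Cd80, with at most 19, 1 and 5 counts a library.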
